A study of Mus musculus with 6 samples.

Results

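The chemokines and chemokine receptors of the array were 54 genes measured by 70 of 41174 probes, 35 ligands with 44 probes and 19 receptors with 26. They were chosen by name: non-control probes whose gene name is Ccl, Cxcl, Ccr or Cxcr followed by a number and at most 1 letter, or is Cx3cl1, Cx3cr1, Xcl1 or Xcr1. The rule uses no measured value, although the family was picked with earlier results of these data known, and every probe was kept. RNA came from mouse embryonic fibroblasts (MEFs, primary connective tissue cells that can be reprogrammed towards pluripotency) at day 8 of reprogramming. All cultures had been infected with factors abbreviated SKO, which the labels do not spell out. They were then kept for 6 days in high-glucose medium with 15% fetal bovine serum and lif. The 3 groups differ in what was added to SKO: Flag, the control; Gadd45a, a small stress-induced protein; or G39A, described as a negative mutant of Gadd45a. Each group has 2 one-colour Agilent arrays, numbered replicate 1 and replicate 2, and no label says that the numbers stand for separate cultures, so the p-values describe spread between arrays that may be technical. The promoter and virus that carried each factor are not stated in the labels.

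Chemokines are small secreted or membrane-anchored proteins that guide cells along gradients. They bind receptors with G-protein coupling, most of which sit on leukocytes, while many ligands are made by stromal cells such as fibroblasts. Ligands of the inflammatory kind are induced through NF-kB and interferon signalling, whereas others, such as Cxcl12 and Cxcl14, are made constitutively by stroma or epithelia.

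Promoter sequence is shown because several ligands described below, among them the neighbours Cxcl1, Cxcl2 and Cxcl3, hold the same short motif. RefSeq promoters (GRCm38.p6) were found for 40 of the 54 genes, as 44 promoters, and the 250 bases before each start were searched on both strands for the consensus motifs of kappaB and of the interferon-stimulated response element (ISRE), and for the AP-1 motif TGANTCA. A kappaB match was present in 10 of 44 promoters (22.7%), against 7.25% of all 32841 promoters. An ISRE match was present in 3 (6.82%, against 2.98%), and an AP-1 match in 5 (11.4%, against 6.75%). A match describes letters and is not evidence of binding. The promoters with a kappaB match were those of Cxcl1, Cxcl2, Cxcl3, Cxcl10, Ccl1, Ccl9, Ccl20, Ccr1, Ccr3 and Ccr6. The ISRE matches were in Cxcl10, Ccl19 and Cxcl14, and the AP-1 matches in Cxcl10, Ccl9, Ccl27a, Ccr3 and Ccr4. The sequences run 5′ to 3′ on the gene's strand and end at the base before the start, with motif matches in capitals. In Cxcl1, Cxcl2 and Cxcl3 the kappaB motif matched on both strands at overlapping positions, which gives 1 run of 11 capitals. In Cxcl10 the capitals are, in order, the ISRE, a kappaB match, a pair of overlapping kappaB matches and the AP-1 match. Ccl20 has 1 kappaB match, and Cxcl12 has no match to any of the 3 motifs in this window.
Cxcl1, chr5:90890995-90891244, plus strand: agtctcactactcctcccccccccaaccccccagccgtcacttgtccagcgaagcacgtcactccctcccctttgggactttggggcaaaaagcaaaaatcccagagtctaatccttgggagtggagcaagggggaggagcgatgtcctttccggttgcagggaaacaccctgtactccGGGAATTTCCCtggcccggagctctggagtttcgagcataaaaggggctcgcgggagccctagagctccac
Cxcl2, chr5:90903649-90903898, plus strand: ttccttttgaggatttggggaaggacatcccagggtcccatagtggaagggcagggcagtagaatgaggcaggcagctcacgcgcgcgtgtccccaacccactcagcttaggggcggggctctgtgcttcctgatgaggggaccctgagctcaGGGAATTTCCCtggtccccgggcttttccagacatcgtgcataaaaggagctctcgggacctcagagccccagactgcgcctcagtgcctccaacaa
Cxcl3, chr5:90785851-90786100, plus strand: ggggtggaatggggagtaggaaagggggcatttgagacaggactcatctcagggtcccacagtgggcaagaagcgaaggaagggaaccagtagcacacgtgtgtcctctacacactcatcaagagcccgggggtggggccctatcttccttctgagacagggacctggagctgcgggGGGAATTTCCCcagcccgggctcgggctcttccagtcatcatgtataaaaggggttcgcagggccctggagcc
Cxcl10, chr5:92348890-92349139, minus strand: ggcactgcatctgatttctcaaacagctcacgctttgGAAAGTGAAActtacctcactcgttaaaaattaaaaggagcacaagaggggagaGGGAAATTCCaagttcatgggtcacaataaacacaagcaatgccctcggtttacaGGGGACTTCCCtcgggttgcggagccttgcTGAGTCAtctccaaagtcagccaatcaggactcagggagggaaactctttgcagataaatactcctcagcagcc
Ccl20, chr1:83116516-83116765, plus strand: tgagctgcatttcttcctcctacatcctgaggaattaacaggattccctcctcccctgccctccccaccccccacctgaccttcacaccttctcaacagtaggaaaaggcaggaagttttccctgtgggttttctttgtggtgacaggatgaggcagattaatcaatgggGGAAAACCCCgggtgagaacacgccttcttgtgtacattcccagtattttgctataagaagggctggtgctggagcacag
Cxcl12, chr6:117168285-117168534, plus strand: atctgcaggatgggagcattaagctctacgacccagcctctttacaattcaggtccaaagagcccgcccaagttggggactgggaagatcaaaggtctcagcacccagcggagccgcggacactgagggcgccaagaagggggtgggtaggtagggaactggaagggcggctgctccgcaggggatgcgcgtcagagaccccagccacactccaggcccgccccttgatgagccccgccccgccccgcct

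The arrays separated by replicate number before they separated by group. Correlations between arrays, over the probes tested between groups, were 0.989 to 0.993 within a replicate number and 0.922 to 0.924 within a group. The Flag and Gadd45a arrays of replicate 1 shared a slide, the G39A array of replicate 1 was alone on a slide, and the 3 arrays of replicate 2 shared another, so replicate number and slide cannot be told apart. No spot was saturated, and 57.0 to 62.9% of spots per array were well above background. The 12 fibroblast markers were all on the array, and 11 or 12 were above background on every array. Their summed signal was 629300 to 833400 in replicate 1 and 1045000 to 1086000 in replicate 2. The count of 11 and the sum of 629300 belong to the Gadd45a array of replicate 1. Dcn had no unflagged spot there, so that sum leaves it out. Of 14 leukocyte markers on the array, 6 or 7 were above background on each array, while Ptprc and Cd3e, which define leukocytes and T cells, were not above background on any. The pluripotency gene Pou5f1 read 3851, 5153 and 6363 on the Flag, Gadd45a and G39A arrays of replicate 1 and was not above background in replicate 2. The Gadd45a probe read 1017, 560 and 1395 in replicate 1 and 2309, 1870 and 2147 in replicate 2, so it was not highest on the arrays labelled Gadd45a. Whether that probe detects the introduced copy is not known here, so it does not check the labels. The groups below are named as labelled.

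Signal below means the scanner's processed intensity, on a linear scale in arbitrary units, given in the order Flag, Gadd45a, G39A. Differences are of log2 signals scaled to each array's 75th percentile. Signals of different probes are not compared with each other. Well above background is the scanner's own mark for a spot. Of the 70 probes, 22 (31.4%) were well above background on all 6 arrays, 23 on 1 to 5 arrays and 25 on none. Over all probes of the array, 52.6% were above background on all 6. By gene, 15 of 35 ligands but 2 of 19 receptors, Cxcr6 and Cxcr7, were above background on every array. The ligands above background on no array with any probe numbered 6, and the receptors 10. The number of family probes above background was 29, 29 and 31 in replicate 1 and 36, 31 and 30 in replicate 2.

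**Figure D1:**
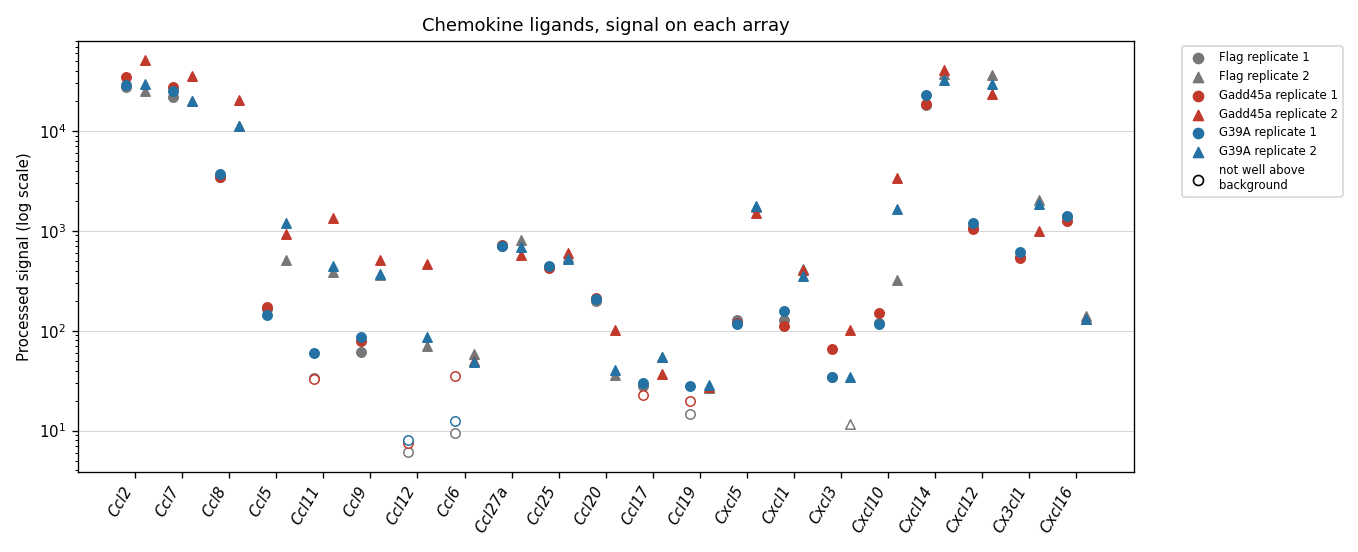
Processed signal (log axis) of the ligands that were tested, 1 probe per gene, with 1 point per array; colour marks the group, circles replicate 1, triangles replicate 2 and open symbols spots not well above background. Ccl2 and Ccl7 are the only inflammatory CC ligands whose circles and triangles share a range, and Cxcl12 sits between 1052 and 1201 in replicate 1 and between 23558 and 36736 in replicate 2.

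The first comparison asks which chemokine genes differ when Gadd45a is added to SKO. Within replicate 2, the tested ligands Ccl2, Ccl5, Ccl7, Ccl8, Ccl9, Ccl11, Cxcl3 and Cxcl10 read higher on the Gadd45a array than on the Flag array. These differences were 0.58 to 3.50 on the log2 scale. In replicate 1 they were smaller, from -0.08 to 0.89. The tested ligands Cxcl1 and Cxcl5 differed by only 0.06 and -0.12 in replicate 2. Cx3cl1, Cxcl12, Ccl17 and Ccl27a, also tested, read lower there, at -0.93, -0.54, -0.47 and -0.41, with a second Cxcl12 probe at -0.81. Ccl20 read higher, by 1.60. By their brightest probes, Ccl19, Ccl25, Cxcl14 and Cxcl16 differed by 0.13, 0.24, 0.23 and 0.01. Of the inflammatory CC ligands not tested between groups, Ccl3, Ccl4 and Ccl6 differed by -0.61, -0.84 and -0.13 in replicate 2. The 2 probes of Ccl24 differed by -0.14 and 0.39, and Ccl12 by 2.8. Of the untested CXC ligands, Cxcl2 differed by -0.88 and the 2 probes of Cxcl15 by -1.08 and -0.91. Cxcl9 and Cxcl11, whose Flag spots were dim, differed by 4.24 and 2.07. Cxcl11 was not above background on the Gadd45a array either. For Cxcl9, Gadd45a was at least 1.21-fold above Flag over both replicate numbers, by the kind of bound described below for Ccr9. Ccr9 was the 1 probe at least 2-fold apart the same way in both replicate numbers. No chemokine probe passed the test: 0 of 28 tested had an adjusted p below 0.05 (limma, Benjamini-Hochberg over 24148 probes; 0.0% of all probes called). At an unadjusted p below 0.05 there were 2 of 28, Cxcl3 and Ccr9, the latter tested only because it was above background with Gadd45a, against 0.613% of all probes (148). With slide as a fixed block, which leaves 1 residual degree of freedom, 0 of 28 and 0 of all probes passed as well. With replicate number as a block, 0 of 28 passed and 7 of 28 had an unadjusted p below 0.05 (7.78% of all). The 28 probes cover 23 genes and were kept because they were above background on both arrays of some group, so they do not stand for the whole family. The errors of this fit hold the difference between replicate numbers, so they are wide for probes where that difference is large.

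Counted within replicate numbers, the Gadd45a minus Flag differences had a median of -0.01 on the log2 scale in replicate 1 and 0.26 in replicate 2, against -0.02 and -0.01 over all tested probes. Of the 28, 14 were higher in replicate 1 and 20 in replicate 2. At least 2-fold differences numbered 1 in replicate 1 (1.83% of all probes) and 9 in replicate 2, all higher (3.4% of all probes, either way). In both replicate numbers 12 of 28 were higher (24.9% of all), 6 were lower (30.9% of all) and 10 went opposite ways. The replicate 2 pattern therefore rests on the arrays of 1 slide.

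Ccl2 and Ccl7, attractants of monocytes through the receptor Ccr2, lie next to each other on chromosome 11 (mm9 chr11:81850650-81850709 and chr11:81860656-81860715 for the probes). Ccl2 read 27455, 34939 and 28545 in replicate 1 and 25378, 51089 and 29587 in replicate 2. Ccl7 read 21975, 27628 and 25392 in replicate 1 and 19850, 35554 and 20123 in replicate 2. For both genes the Gadd45a array was the highest of its replicate number, and both Gadd45a arrays lay above all Flag and G39A arrays. The Gadd45a minus Flag difference of Ccl2 was 0.30 in replicate 1 and 1.11 in replicate 2, with a mean of 0.70 ± 0.32 (SE, n = 2 arrays per group; adjusted p = 1.0, limma). That of Ccl7 was 0.28 and 0.94, with a mean of 0.61 ± 0.25 (adjusted p = 1.0), and a second Ccl7 probe gave 0.66 ± 0.26. Within slides, as a fixed block, the errors were 0.24 for Ccl2 and 0.21 for Ccl7, with an adjusted p of 0.741 for each.

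Ccl8, Ccl11 and Ccl12, from the same chromosome 11 neighbourhood, showed a gap between Gadd45a and the other groups in replicate 2 and none of that size in replicate 1. Ccl8, a monocyte attractant, read 3430, 3424 and 3669 in replicate 1 and 11231, 20583 and 11128 in replicate 2. Ccl11, or eotaxin, which recruits eosinophils through Ccr3, read 33.3, 32.7 and 59.3 in replicate 1, where the Gadd45a spot was not above background, and 389, 1335 and 449 in replicate 2. Ccl12, a mouse ligand of Ccr2, was not above background in replicate 1 and read 71.2, 461 and 85.8 in replicate 2. For all 3 genes the Gadd45a array of replicate 2 stood above both other arrays of that number, which lay close to each other. The Gadd45a minus Flag differences were -0.05 and 0.97 for Ccl8, with a mean of 0.46 ± 1.27, and -0.08 and 1.88 for Ccl11, with a mean of 0.90 ± 2.45. Ccl12 was not tested between groups, since no group had both arrays above background. The Ccl12 and Ccl8 probes share a run of 13 bases, CCTTGAACCTTCA, of their 60, where the median over all 2399 pairs of probes of different family genes was 6.

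Ccl5, Ccl9 and Ccl6 lie in a neighbouring stretch of chromosome 11 (chr11:83339296-83402056 from the first probe to the last). Ccl5, or RANTES, an attractant of T cells and monocytes, read 164, 172 and 143 in replicate 1 and 514, 926 and 1187 in replicate 2. In replicate 2 the Gadd45a and G39A arrays both stood above Flag, so the order differed from that of Ccl2. The Gadd45a minus Flag difference of Ccl5 was 0.03 and 0.95, and that of G39A minus Flag -0.39 and 1.24. A second Ccl5 probe, read at 47.7, 50.2 and 47.4 and then 172, 481 and 391, gave 0.03 and 1.59 for Gadd45a and -0.21 and 1.22 for G39A. Ccl9, a ligand of Ccr1, read 60.9, 78.3 and 86.4 in replicate 1 and 364, 509 and 369 in replicate 2, with Gadd45a minus Flag differences of 0.32 and 0.58. Ccl6, also a ligand of Ccr1, was above background in replicate 2 only, at 48.8 to 58.7, with little between the groups. Over the inflammatory CC ligands, 8 of 8 tested probes, from 6 genes, had a positive mean Gadd45a minus Flag difference, with a median of 0.63, where 11343 of all 24148 probes were positive, and 0 of 8 passed the test. Against the same Flag arrays, 7 of 8 had a positive mean G39A minus Flag difference, with a median of 0.12. Ccl8 and Ccl11 were lower with Gadd45a than with Flag in replicate 1.

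The ligands with the ELR sequence, which attract neutrophils through Cxcr2, differed among themselves: Cxcl3 read highest with Gadd45a, and Cxcl1 and Cxcl5 did not. Cxcl1 and Cxcl3 hold the same kappaB letters shown above. Cxcl1 read 129, 112 and 158 in replicate 1 and 419, 409 and 357 in replicate 2. Cxcl5 read 129, 121 and 116 in replicate 1 and 1736, 1496 and 1770 in replicate 2. Within each replicate number the 3 groups lay close together for both, with Gadd45a minus Flag means of -0.09 ± 1.03 for Cxcl1 (95% interval -2.84 to 2.65) and -0.13 ± 2.28 for Cxcl5 (-6.17 to 5.92). Cxcl3 read 34.4, 66.0 and 34.4 in replicate 1 and 11.8, 103 and 34.5 in replicate 2, where the Flag spot was not above background. Cxcl3 was highest on the Gadd45a array in both replicate numbers, by 0.89 and 3.23 over Flag, a mean of 2.06 ± 0.60 (adjusted p = 1.0). Cxcl2 was above background on 2 arrays, the Flag and Gadd45a arrays of replicate 2, at 45.8 and 23.2, and Cxcl15 on the Flag and G39A arrays of replicate 2.

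Cxcl10, an interferon-induced attractant of T cells through Cxcr3, had the largest Gadd45a minus Flag difference of any tested ligand within replicate 2. It read 119, 150 and 117 in replicate 1 and 321, 3380 and 1657 in replicate 2. In replicate 2 both Gadd45a and G39A stood well above Flag, and in replicate 1 the Gadd45a array read highest. The differences from Flag were 0.28 and 3.50 for Gadd45a, with a mean of 1.89 ± 2.13, and -0.22 and 2.41 for G39A, with a mean of 1.09 ± 2.13 (adjusted p = 1.0 for each). Cxcl9, another ligand of Cxcr3, was above background on the same 2 arrays only, at 61.7 for Gadd45a and 25.6 for G39A of replicate 2. Cxcl11, the third, was not above background on any array. Interferon gamma itself, Ifng, was not above background on any array, and neither was Cxcr3.

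Among the other CC ligands, Ccl20 stood out in replicate 2. Ccl20, which attracts cells with Ccr6, read 197, 213 and 207 in replicate 1 and 36.1, 102 and 40.3 in replicate 2. Its 3 groups were alike in replicate 1, and Gadd45a was above the other groups in replicate 2, with differences from Flag of 0.07 and 1.60 (mean 0.83 ± 1.1). Ccl17, a ligand of Ccr4, was lowest on the Gadd45a array in both replicate numbers, at 27.8, 22.9 and 30.2 and then 54.6, 37.0 and 55.0, the 22.9 being not above background. Its differences from Flag were -0.33 and -0.47 (mean -0.40 ± 0.61). Ccl19, a ligand of Ccr7, read 14.5, 19.9 and 27.8 in replicate 1, where the G39A spot alone was above background, and 26.8, 27.3 and 28.9 in replicate 2. Ccl25, the ligand of Ccr9, read 434, 428 and 444 and then 542, 598 and 526, and Ccl27a, a skin ligand of Ccr10, read 713, 718 and 708 and then 816, 572 and 689. For Ccl25 the Gadd45a minus Flag interval was -0.84 to 1.01, and for Ccl27a -0.76 to 0.31. Ccl19 and Ccl27a belong to a mouse locus with near-identical gene copies, which these probes may not tell apart.

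The stromal and membrane-anchored ligands Cxcl12, Cx3cl1, Cxcl14 and Cxcl16 were each above background on all 6 arrays with at least 1 probe. Cxcl12, which holds blood stem cells and lymphocytes in their niches through Cxcr4, read 1094, 1052 and 1201 in replicate 1 and 36736, 23558 and 29856 in replicate 2. A second Cxcl12 probe differed by 0.49 and -0.21 for G39A minus Flag and by -0.58 and -0.60 for Gadd45a minus G39A. Cx3cl1, or fractalkine, a membrane-anchored ligand of Cx3cr1, read 547, 535 and 610 in replicate 1 and 2037, 1001 and 1865 in replicate 2. By these probes both were lowest on the Gadd45a array in each replicate number, with differences from Flag of -0.10 and -0.54 for Cxcl12 (mean -0.32 ± 2.83) and -0.08 and -0.93 for Cx3cl1 (mean -0.50 ± 0.99). Cxcl14, a ligand of epithelia and stroma, read 18397, 18474 and 22957 and then 36963, 40559 and 32154. Cxcl16, a membrane-anchored ligand of Cxcr6, read 1365, 1247 and 1410 and then 139, 131 and 130. Neither Cxcl14 nor Cxcl16 had groups more than 0.40 apart within a replicate number.

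**Figure D2:**
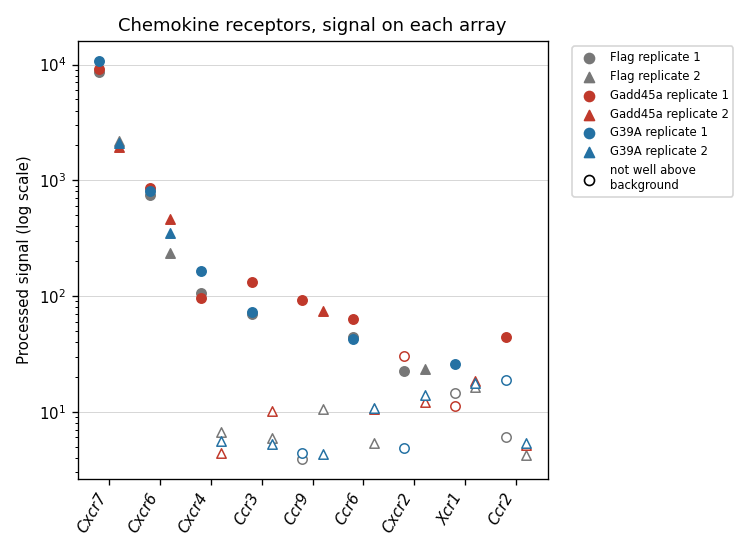
Processed signal (log axis) of the receptors above background on at least 1 array, 1 probe per gene and 1 point per array, with symbols as for the ligands. Ccr9 has filled symbols on the 2 Gadd45a arrays only, at 92.1 and 74.9, and Cxcr4, Ccr3 and Ccr6 have filled symbols in replicate 1 only.

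Ccr9, a receptor that directs lymphocytes to gut and thymus and answers to Ccl25, was above background on the 2 Gadd45a arrays and on no other. It read 3.9, 92.1 and 4.4 in replicate 1 and 10.6, 74.9 and 4.3 in replicate 2 (probe at chr9:123690334-123690393). Since the Flag and G39A spots were dim, the ratio is a bound: Gadd45a was at least 4.65-fold above Flag and at least 4.18-fold above G39A. For such a bound each dim array is given its dimmest well-above-background signal, or the probe's signal where that is larger, before the group means are compared. The measured difference from Flag was 4.51 and 2.92, with a mean of 3.72 ± 0.53 (adjusted p = 1.0, limma), and rests partly on dim signals. Ccr9 entered the test only through the Gadd45a group, where it was high, so its p and its place in the counts of the 28 probes give no support for a difference. With slide as a fixed block it was 3.72 ± 0.44 with an adjusted p of 0.721. Of all tested probes, 0.447% (108) were at least 2-fold apart the same way within both replicate numbers in this comparison.

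Cxcr6, the receptor of Cxcl16, read 750, 861 and 804 in replicate 1 and 236, 464 and 352 in replicate 2. Its signal was lowest on the Flag array in each replicate number, although G39A minus Flag after scaling was -0.10 in replicate 1, and Gadd45a minus Flag was 0.15 and 1.07 (mean 0.61 ± 0.68). Cxcr7, an atypical receptor that takes up Cxcl12 (RefSeq symbol Ackr3), read 8621, 9109 and 10831 and then 2163, 1932 and 2086, with differences from Flag of 0.03 and -0.07. Cxcr2, the receptor of the ELR ligands, was above background on both Flag arrays, at 22.5 and 23.4, and on no other. The Gadd45a and G39A arrays read 30.0 and 4.8 in replicate 1 and 12.2 and 13.9 in replicate 2. The dimmest well-above-background signal was 35.1 on the Gadd45a array of replicate 1 and 19.3 on the Flag array. The unmarked 30.0 was thus higher than both marked Flag signals. Flag was at least 1.14-fold above G39A, a bound close to 1. Cxcr2 entered the test only through the Flag group, so its values and its place in the counts give no support for a difference. Other receptors above background were Ccr2 on the Gadd45a array of replicate 1 and Xcr1 on the G39A array of replicate 1. Ligands above background on the Flag array of replicate 2 alone were Ccl1, Ccl3, Ccl4, Ccl24 and Cxcl13.

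**Figure D3:**
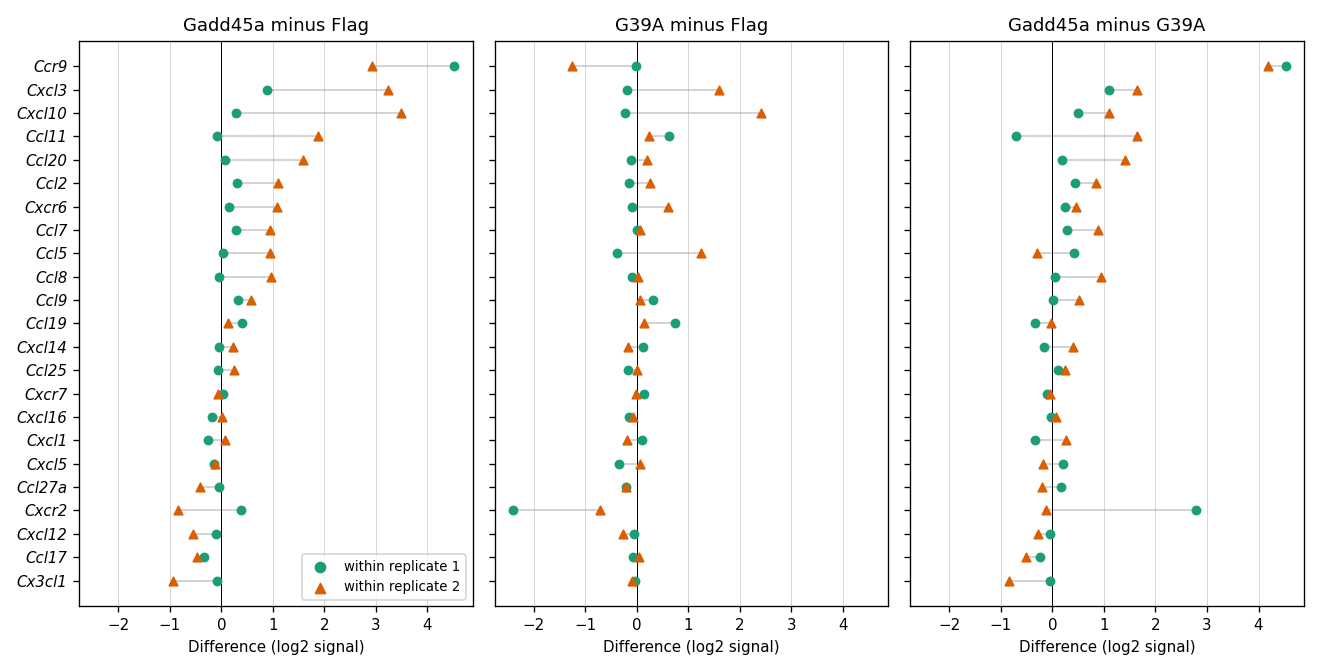
Difference between groups (log2 signal) within replicate 1 (circles) and within replicate 2 (triangles) for the 23 tested genes, 1 probe each, in the 3 comparisons. In Gadd45a minus Flag most circles lie near 0. Triangles reach from -0.93 for Cx3cl1 to 3.50 for Cxcl10, with more of them to the right of 0. Ccr9 lies to the right in both replicate numbers in the first and the third panel.

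The G39A arrays were compared with the same Flag arrays, so this comparison and the first share their controls. None of 28 probes had an adjusted p below 0.05 (0.0% of all probes called), and 0 of 28 had an unadjusted p below 0.05 (0.522% of all, 126 probes; 0 of 28 and 2.99% of all with the replicate block). The G39A minus Flag median over the 28 was -0.08 in replicate 1 and 0.05 in replicate 2. Of the 28, 9 were higher in replicate 1 and 17 in replicate 2, 5 in both (20.1% of all) and 7 lower in both (27.9% of all). At least 2-fold differences numbered 1 in replicate 1 (2.59% of all) and 5 in replicate 2, 4 of them higher (1.81% of all, either way), and 0 were 2-fold the same way in both (0.377% of all). The 1 in replicate 1 was Cxcr2 (-2.41), tested only because it was above background with Flag. The 1 lower in replicate 2 was Ccr9 (-1.27), with neither spot above background. The G39A minus Flag differences of Ccl2 were -0.14 and 0.26 and of Ccl7 0.01 and 0.06, beside the 0.30 and 1.11 and the 0.28 and 0.94 of Gadd45a given above. For Cxcl10, Ccl5 and Cxcl3 the G39A array of replicate 2 stood above Flag by 2.41, 1.24 and 1.59. The G39A array of replicate 1 had its own slide, so replicate 2 alone gives a within-slide value for G39A.

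Gadd45a was set against G39A directly to see which chemokine genes differ between the protein and its mutant. Again 0 of 28 probes passed (0.0% of all probes called), and 1 of 28, Ccr9, had an unadjusted p below 0.05 (0.683% of all, 165 probes; 6 of 28 and 8.49% of all with the replicate block). At least 2-fold differences numbered 3 in replicate 1 (2.87% of all) and 5 in replicate 2 (2.38% of all). The 3 included Cxcr2, by 2.78, with neither spot above background and tested only through the Flag group. Ccr9, tested only through the Gadd45a group, was in both counts. Probes at least 2-fold apart the same way in both replicate numbers were Ccr9, by 4.53 and 4.19, and Cxcl3, by 1.09 and 1.64 (0.364% of all probes). Ccl2 was higher with Gadd45a by 0.44 and 0.85, a mean of 0.65 ± 0.32, and Ccl7 by 0.27 and 0.88, a mean of 0.58 ± 0.25 (adjusted p = 1.0 for each). Ccl5 went opposite ways, at 0.42 and -0.30, and Cxcl10 was higher by 0.51 and 1.09. Of the 28, 12 were higher in both replicate numbers (31.4% of all) and 6 lower in both (28.3% of all). Whether the difference from Flag is itself different for Gadd45a and G39A is what this comparison tests, and no member passed it.

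The second axis of the data is the replicate number, where differences were large in all 3 groups. In replicate 2 most inflammatory CC ligands, Cxcl1, Cxcl5, Cxcl10, Cxcl12, Cxcl14 and Cx3cl1 were higher, and Cxcr6, Cxcr7, Cxcl16 and Ccl20 were lower. Of 31 tested probes (26 genes), 25 passed (17 higher and 8 lower in replicate 2; limma with group as a term, adjusted over 24691 probes). Over all probes 57.3% passed, 32.6% higher and 24.7% lower. Of 26 ligand probes 17 were higher and 3 lower, and of 5 receptor probes 0 were higher and 5 lower. The receptors Cxcr4, Ccr3 and Ccr6 entered the test only through replicate 1, and Ccl12 and Ccl6 only through replicate 2, so the filter fixed their direction and the counts do not set receptors apart from ligands. The replicate numbers did not overlap for 26 of 31 probes, against 68.2% of all probes. The median difference, replicate 2 minus replicate 1, was 0.64 over the 31 and 0.10 over all tested probes. Scaling by each array's median in place of the 75th percentile moved the latter to 0.24 and the share of higher among all calls from 56.9% to 67.3%, and gave 18 higher and 8 lower in the family. In bulk RNA, fewer cells of a type and less RNA per cell cannot be told apart.

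**Figure D4:**
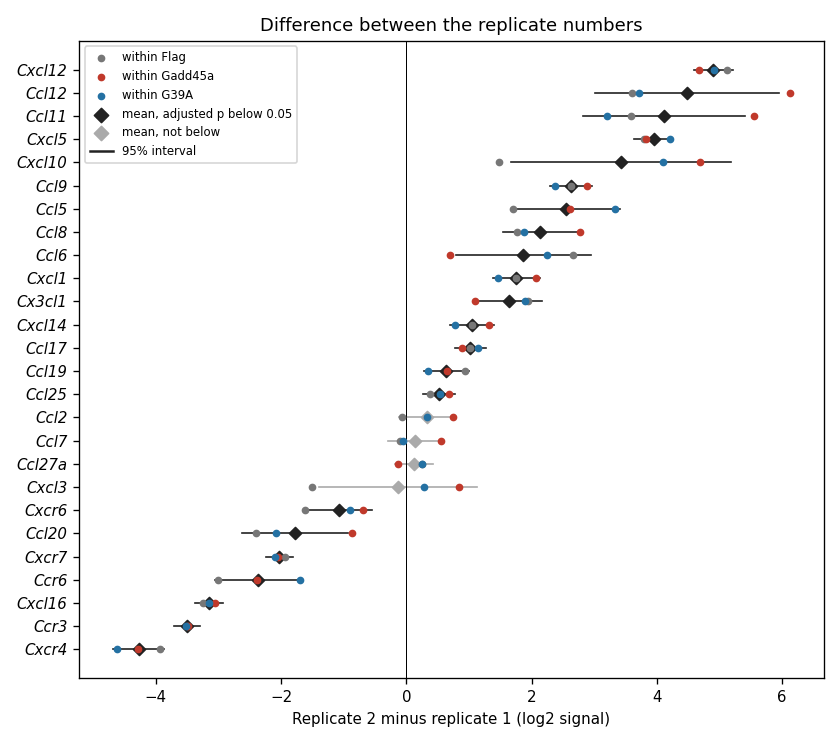
Replicate 2 minus replicate 1 (log2 signal) for the 26 tested genes, 1 probe each: small points within each group, diamonds the mean with its 95% interval, black where the adjusted p was below 0.05 and grey where not. The points of the 3 groups cluster for Cxcl12, Cxcl5 and Cxcl16 and spread for Ccl12, Ccl11 and Cxcl10, whose Gadd45a points lie furthest right.

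Cxcl12 rose by 4.91 ± 0.12 (SE, n = 3 arrays per replicate number; 30.0-fold; adjusted p = 5.9e-05), and its second probe, read at 260, 251 and 417 and then 10567, 5647 and 8937, by 4.93 ± 0.17. Cxcl5 rose by 3.95 ± 0.12 (15.4-fold; adjusted p = 7.5e-05) and Cxcl1 by 1.76 ± 0.14 (3.38-fold). Their chromosome 5 neighbour Cxcl3 had a difference of -0.13 ± 0.48 (95% interval -1.39 to 1.13; adjusted p = 0.833), with groups that went different ways, -1.50 in Flag, 0.83 in Gadd45a and 0.29 in G39A. Cxcl10 was higher by 3.42 ± 0.66 (adjusted p = 0.0118), by 1.48 in Flag and by 4.69 and 4.11 in Gadd45a and G39A. Without the G39A arrays the Cxcl10 difference was 3.08 with an adjusted p of 0.0639. Cx3cl1 rose by 1.65 ± 0.20 and Cxcl14 by 1.05 ± 0.13.

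The CC ligands divided within 1 gene cluster. Ccl12 rose by at least 6.52-fold (measured difference 4.48 ± 0.55, adjusted p = 0.0029), Ccl11 by 4.12 ± 0.49 (17.3-fold; adjusted p = 0.0026) and Ccl8 by 2.14 ± 0.23 (4.41-fold). Their neighbours Ccl2 and Ccl7 did not pass, at 0.34 ± 0.17 (95% interval -0.12 to 0.80; adjusted p = 0.161) and 0.14 ± 0.16 (-0.29 to 0.56; adjusted p = 0.505). The probes of these 5 genes lie within chr11:81850650-81930167. In the second stretch, Ccl9 rose by 2.63 ± 0.13, Ccl5 by 2.55 ± 0.32 and by 2.89 ± 0.34 with its second probe, and Ccl6 by at least 2.41-fold (1.87 ± 0.41, adjusted p = 0.017). The Ccl6 call was lost without the Flag arrays (1.47, adjusted p = 0.0661), without the G39A arrays (1.68, adjusted p = 0.0841) and with no filter on dim probes (adjusted p = 0.057).

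Ligands with smaller differences were Ccl17, higher by 1.02 ± 0.09, Ccl19, by 0.64 ± 0.14, and Ccl25, by 0.52 ± 0.10, while a second Ccl25 probe gave 0.32 ± 0.12 and missed the threshold (adjusted p = 0.0808). Ccl19 lost its call without the Flag arrays (adjusted p = 0.0557), without the Gadd45a arrays (0.0589) and with no filter (0.0629). Ccl25 lost it without the G39A arrays (0.0537) and with no filter (0.051). Ccl27a did not pass (0.12 ± 0.11, 95% interval -0.19 to 0.42). Leaving out either array of a group gives the same value here, because the group term then takes up its other array.

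Cxcl16 fell by 3.15 ± 0.09 on the log2 scale (8.89-fold lower in replicate 2; adjusted p = 6.7e-05), and its second probe, at 575, 534 and 634 and then 82.3, 93.9 and 86.4, gave -2.56 ± 0.12. Ccl20 was lower by 3.44-fold (-1.78 ± 0.32, adjusted p = 0.0093), and missed the threshold without the G39A arrays (-1.63, adjusted p = 0.0537). The Flag and G39A arrays fell further for Ccl20, with differences of -2.39 and -2.08, than the Gadd45a arrays, with -0.87. Whether the groups differ in the size of this fall was not tested.

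The receptors Cxcr7 and Cxcr6, above background on all 6 arrays, were lower in replicate 2. Cxcr7 was 4.08-fold lower (-2.03 ± 0.08, adjusted p = 0.00014) and Cxcr6 2.11-fold lower (-1.07 ± 0.20, adjusted p = 0.0107). Cxcr4 read 106, 97.0 and 166 in replicate 1 and 6.7, 4.4 and 5.6 in replicate 2, Ccr3 69.5, 131 and 73.0 and then 5.9, 10.2 and 5.2, and Ccr6 44.4, 63.3 and 42.9 and then 5.4, 10.6 and 10.8. None of these 3 was above background in replicate 2, so the falls are bounds, at least 5.43-fold for Cxcr4, 3.96-fold for Ccr3 and 2.24-fold for Ccr6. A second probe of Cxcr4 was above background on 2 arrays, both of replicate 1, and a second probe of Ccr3 on none.

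Set beside their receptors, the ligands moved in both senses. Cxcl12 was higher in replicate 2 while its receptors Cxcr4 and Cxcr7 were lower, and Ccl11 was higher while its receptor Ccr3 was lower. Cxcl16 and Cxcr6 were both lower, as were Ccl20 and Ccr6. Cxcr4, Ccr3 and Ccr6 entered the test only through replicate 1, so the filter fixed their direction in these pairings. Ccr9 was above background in the Gadd45a group in both replicate numbers, and its ligand Ccl25 changed by at most 0.67 between replicate numbers in any group. Ccr1, a receptor of Ccl6 and Ccl9, and Cxcr3, the receptor of Cxcl10, were not above background on any array.

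Genes of the pathway outside the named family followed no single direction. Of 6 tested probes for family genes with other names, 6 passed: Ppbp, a neutrophil attractant, read 8.2, 12.6 and 5.0 in replicate 1, not above background, and 260, 1375 and 400 in replicate 2, and Ccrl1, a scavenger of CC ligands, was also higher. The decoy receptor Darc, at 555, 480 and 731 and then 96.1, 55.3 and 87.8, and the atypical receptor Ccrl2 were lower. Ppbp and Ccrl1 entered the test between replicate numbers only through replicate 2, and Ccrl2 only through replicate 1. The filter therefore fixed their direction, and the count of 6 gives no support for a shift. Of 34 probes for NF-kB and inflammatory inducers 19 passed, 6 higher and 13 lower. Il1r1, the interleukin 1 receptor, was higher by 5.0 ± 0.08, whereas Tlr2 (-2.20 ± 0.16), the NF-kB inhibitor Nfkbia (-1.14 ± 0.09) and Tnfaip3 (-1.28 ± 0.10) were lower. Tnf, Il1a and Il1b were not above background on any array. Of 15 probes of the interferon gamma arm 8 passed, all higher, among them Socs1 by 1.63 ± 0.09 and Ifngr2 by 1.41 ± 0.09. Of 35 probes of chemokine receptor signalling 21 passed, 8 higher and 13 lower, with Gng2 higher by 3.36 ± 0.11 and the arrestin Arrb1 lower (-2.33 ± 0.08). These shares stand beside 57.3% for all probes. Between groups, 0 probes of any of these lists passed. Il6, an inflammatory cytokine, read 375, 532 and 391 in replicate 1 and 411, 986 and 470 in replicate 2, highest on the Gadd45a array in both numbers. Its mean Gadd45a minus Flag difference, 0.91, was the highest of the 34 probes for NF-kB and inflammatory inducers. Over those 34 the median was 0.03, with 19 higher and 15 lower, so Il6 does not stand for its list.

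Markers of cell types moved with the replicate number as well. Of 23 fibroblast marker probes 20 passed, all higher in replicate 2. Of 10 leukocyte and macrophage probes 8 passed, 5 higher and 3 lower, and the summed signal of the 14 markers was 2285 to 2637 in replicate 1 and 5304 to 8923 in replicate 2. Lyz2 read 804 to 871 in replicate 1 and 4038 to 7592 in replicate 2, Emr1 was above background in replicate 2 only, and Itgam in replicate 1 only. Of 6 epithelial probes 4 passed, all lower, with Epcam and Cdh1 above background in replicate 1 only. The summed epithelial signal was 5048 to 5867 in replicate 1 and 1717 to 2784 in replicate 2. Of the epithelial markers above background on all 6 arrays, Krt8 differed by -3.755, Krt18 by 0.35 and Krt19 by -0.02. Of 4 endothelial probes 2 passed, both lower, and the defining markers Pecam1 and Cdh5 were not above background on any array. The summed endothelial signal was 862 to 1065 in replicate 1 and 242 to 275 in replicate 2. Of these sums Tek gave 621, 618 and 736 in replicate 1 and 25.0, 15.1 and 13.5 in replicate 2. Kdr and Vwf, by their brightest probes, differed by 0.02 and 0.35, so the fall of the sum does not stand for the list. Itgam, Epcam, Cdh1 and the brightest probe of the endothelial marker Tek entered the test between replicate numbers only through replicate 1. Emr1 entered it only through replicate 2. The filter fixed the direction of these markers, so their calls give no support for a shift. Between groups, 0 probes of these lists passed. The leukocyte sum in replicate 2 was 8923, 5304 and 6239, of which Lyz2 gave 7592, 4038 and 4949, while Aif1 (199, 249.5 and 193) and Csf1r (105, 116 and 96.4) read highest on the Gadd45a array. Like Lyz2, Cd14 (673, 611 and 681), Emr1 (62.1, 23.6 and 28.1) and Fcgr1 (46.8, 23.2 and 42.7) read lowest there. Cd68 (186, 193 and 199) lay between. The part of these marker differences in the chemokine results was not tested.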

How the data were processed

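Spot intensity came from Agilent Feature Extraction (10.7 per the submitters' processing notes). Per the file headers, the intensities are background-subtracted processed signals with surrogate values for dim spots, not normalized between arrays, and probe positions are on mm9. The deposited table of log2 values follows its own arrays (lowest r 0.9989) and has column medians of 6.17; its making is not given in the sources used here. The deposited 0 or 1 marks, which are scores here, say whether a spot was an outlier or well above background.

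Control and outlier spots were left out, the spots of a probe were averaged, and log2 signals were scaled to the 75th percentile of their array. Tests used limma 3.58 in R 4.3 at an adjusted p of 0.05. Groups were compared over probes above background on both arrays of a group (24148), with group alone in the model. Replicate numbers were compared over probes above background on all 3 arrays of a replicate number (24691), with group as a further term. All 6 arrays entered each fit. The scripts were tested on simulated data. Of the 70 probes, 67 had an accession in the RefSeq table. Members tested by either rule are named with their values, and those above background on fewer arrays with the array; for genes with several probes the brightest is given. Whether a probe lies in coding or untranslated sequence was not analysed here. The family and the lists were chosen with earlier results of these data known.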

Additional observations from a re-analysis of the deposited data

How the results depend on the processing

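Between groups, the count of chemokine probes passing the test was also 0 under quantile or median scaling, normexp background, the deposited value table, no filter, a filter on all 6 arrays, 1 probe per gene name, slide as a fixed or random block, and with any 1 array left out (0 to 0). Counts of 0 in so small a design say nothing about stability. With slide as a random block, 20 probes of all genes passed for Gadd45a against Flag and 3 for G39A against Flag, where the other fits gave 0. The replicate numbers are not stated to pair the arrays, but same-numbered arrays deviated together from their group means (correlations 0.90 to 0.905). With replicate number as a block, 0 probes passed in each comparison, and Ccr9 had an adjusted p of 0.331 for Gadd45a against Flag. Probes at least 2-fold apart the same way in both replicate numbers became 2 with no filter (Ccr9 and Ccl1) and 0 with a filter on all 6 arrays for Gadd45a against Flag, 2 with no filter (Ccl1 and Ccl24) for G39A against Flag, and 1 with normexp and 0 with that filter for Gadd45a against G39A. Between replicate numbers, leaving out 1 array gave 10573 to 11267 probes of all genes and 21 to 24 chemokine probes, and no named difference that passed changed its sign. Precision is limited by the number of arrays, and for dim probes by signal over background.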
